A study of Homo sapiens with 9 samples.

Results

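Described here are 9 genes of unrelated families: PTPRF, NPTX1, MLC1, RHEX, HSH2D, TREML1, PLPPR3, OSBPL5 and CA2. These 9 of the 61180 gene names in the tables were picked because their counts were low in macrophages sorted as proximal to a tumour cell against macrophages sorted as distal, so that contrast is described for them and not tested. All 9 passed the filter on low counts (15427 of all gene names did), which a gene passes through the libraries of any 1 group. RNA was sequenced from 3 libraries each of proximal, distal and monocultured macrophages. All 3 groups were wild type by label and were made from THP-1, a single human monocytic leukaemia line, with 250 nM of the phorbol ester PMA for 48 h. Proximal and distal cells had then spent 24 h with HER2+ MDA-MB-231 cells, a breast cancer line carrying the receptor HER2, at a stated ratio of 20 or 40 macrophages per tumour cell, depending on the label read. A HER2-binding enzyme conjugate on the tumour cells released a short-lived biotin label onto cells nearby, and the strength of that label set the sort gates. Monocultured cells had no tumour cells. The sources used here do not state whether they went through labelling and sorting, nor that replicates were separate cultures, so p-values measure the spread between these libraries, which may be technical. The gates are read from table headings H (proximal) and L (distal), a key that no label spells out, and the sign of every gate difference below rests on it.

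The genes span several biological roles. PTPRF (also called LAR) is a receptor tyrosine phosphatase whose extracellular part resembles adhesion molecules, TREML1 is an inhibitory-type receptor stored in platelet granules, and MLC1 is a membrane protein of astrocyte junctions whose loss causes a childhood leukoencephalopathy. RHEX and HSH2D act inside blood cells, the first as a membrane adaptor downstream of the erythropoietin receptor and the other as an SH2 domain adaptor of lymphocytes. NPTX1 is a secreted pentraxin that clusters glutamate receptors at synapses, PLPPR3 belongs to a family related to lipid phosphate phosphatases and is known from growing axons, OSBPL5 moves phosphatidylserine between the endoplasmic reticulum and the plasma membrane, and CA2 is the cytosolic carbonic anhydrase of red cells and osteoclasts.

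Sequence upstream of the genes was examined, after the values were known, because GATA2, a transcription factor of blood progenitors, was among the genes with the most similar profile (described further on). RefSeq (GRCh38.p14) windows of the 250 bases before a transcription start were used for 6 of the 9 genes. No entry was found for NPTX1 and HSH2D, and CA2 was left out. Printed are the window with the most GATA letters, the second MLC1 start, which also holds them, and for contrast a window of low and one of high CG content without them. Sequences run 5′ to 3′ on the gene's strand, and capitals mark the searched letters AGATAA or AGATAG on either strand.

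RHEX (chr1:206083345-206083562, plus strand): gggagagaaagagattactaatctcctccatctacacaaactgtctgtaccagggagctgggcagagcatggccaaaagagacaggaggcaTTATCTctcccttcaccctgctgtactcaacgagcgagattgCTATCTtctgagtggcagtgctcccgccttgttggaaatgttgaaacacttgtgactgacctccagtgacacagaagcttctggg

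MLC1, second start (chr22:50085876-50086125, minus strand): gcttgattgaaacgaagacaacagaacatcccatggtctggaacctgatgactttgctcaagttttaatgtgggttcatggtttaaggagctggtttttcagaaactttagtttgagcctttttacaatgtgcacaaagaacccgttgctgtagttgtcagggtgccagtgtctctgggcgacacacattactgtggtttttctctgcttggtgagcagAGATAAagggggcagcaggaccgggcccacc

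TREML1, first start (chr6:41154350-41154599, minus strand): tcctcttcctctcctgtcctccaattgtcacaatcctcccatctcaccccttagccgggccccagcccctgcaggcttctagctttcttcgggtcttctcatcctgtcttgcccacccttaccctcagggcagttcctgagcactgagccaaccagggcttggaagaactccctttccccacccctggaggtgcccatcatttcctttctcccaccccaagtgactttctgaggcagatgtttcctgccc

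PLPPR3 (chr19:821956-822205, minus strand): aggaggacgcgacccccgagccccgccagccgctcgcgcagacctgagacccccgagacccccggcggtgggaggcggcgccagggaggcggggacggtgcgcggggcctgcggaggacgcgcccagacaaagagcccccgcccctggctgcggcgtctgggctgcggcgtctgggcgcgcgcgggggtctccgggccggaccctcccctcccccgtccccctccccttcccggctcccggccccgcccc

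The RHEX window held the GATA letters 2 times, starting 159 and 117 bases before the start and both on the opposite strand, and it is printed only up to the first base that the files count as exonic. Its RefSeq start lies 30422 bases inside the outermost end of RHEX in the annotation of the files, so other starts exist. The second MLC1 start held them once, 31 bases before the start. That start lies outside the outermost end of MLC1 in the annotation of the files (offset -449 bases). Thus 2 of 6 genes had a match at any start and 1 of 6 at the first start, where 14.2% of 27303 windows had one. At the first start, MYB letters (TAACNG or CAACNG) were found for 0 of 6 genes and at any start for 1, against 39.4% of all windows. ETS letters (GAGGAA) were found for 2 of 6 at the first start, against 23.4%, and the TATA letters TATAAA for 0 of 6, against 11.1%. These shares are per window, and TREML1 and MLC1 have 2 windows each. All motifs were searched on both strands, and a match is only a match of letters. The windows fell far apart in composition: PLPPR3 had a GC content of 81.6% with 34 CG dinucleotides, OSBPL5 78.4% with 33 and PTPRF 66% with 28. The RefSeq starts of OSBPL5 and PTPRF lie 1429 and 5696 bases inside the outermost ends of these genes in the files' annotation. The OSBPL5 window begins on a base that the files count as exonic. TREML1 had 57.6% with 2, RHEX 51.2% with 4, and MLC1 51.2% with 7 and 47.2% with 4 at its respective starts. The median window had 58% and 11.

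The receptor-type and junction proteins come first. Levels are CPM, the read pairs of a gene scaled to the effective library size, and ± is the SD over 3 libraries. PTPRF (chromosome 1, 43525187 to 43623666, plus strand, GRCh38.p13 as for all positions) stood at 20.1, 20.9 and 19.6 CPM in proximal replicates 1 to 3, at 98.2, 95.4 and 112 CPM in distal ones and at 132, 132 and 114 CPM in monocultured ones. Every proximal library was below every other library, and the highest distal library was just below the lowest monocultured one. Proximal cells held 5.05-fold less PTPRF than distal cells (20.2 ± 0.664 against 102 ± 8.98 CPM) and 6.24-fold less than monocultured cells (126 ± 10.7 CPM). The spread of PTPRF in proximal cells was the smallest of the 9 genes there (coefficient of variation 3.29%).

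TREML1 (chromosome 6, 41149342 to 41154337, minus strand) was measured at 1.19, 0.733 and 1.16 CPM in proximal, 6.72, 6.21 and 6.51 CPM in distal and 8.95, 8.96 and 9.76 CPM in monocultured libraries. The 3 groups did not overlap, in the order monocultured, distal, proximal. The proximal values rest on 16, 10 and 18 read pairs. TREML1 was 6.31-fold lower in proximal than in distal cells and 8.98-fold lower than in monocultured cells. MLC1 (chromosome 22, 50059391 to 50085426, minus strand) stood at 2.22, 1.32 and 2.26 CPM in proximal, 13.99, 17.3 and 16.7 CPM in distal and 23.2, 17.4 and 23.2 CPM in monocultured libraries. Monocultured replicate 2 was close to the distal range, and the proximal libraries lay far below both groups. MLC1 was 8.27-fold lower in proximal than in distal cells, and its proximal mean was 9.09% of the monocultured one.

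The signalling adaptors of blood cells follow. RHEX (chromosome 1, 206053173 to 206102449, plus strand) was at 0.815, 1.10 and 1.36 CPM in proximal, 8.51, 9.18 and 10.1 CPM in distal and 15.3, 15.01 and 16.9 CPM in monocultured libraries. No groups overlapped, and monocultured libraries were highest. RHEX was 8.49-fold lower in proximal than in distal cells, and 14.4-fold lower than in monocultured cells. HSH2D (chromosome 19, 16134028 to 16158575, plus strand) stood at 1.63, 1.76 and 3.75 CPM in proximal, 17.8, 17.1 and 18.7 CPM in distal and 16.2, 13.2 and 13.7 CPM in monocultured libraries. Proximal replicate 3 was the highest proximal library, and yet all 3 were far below the rest. For HSH2D the distal libraries, not the monocultured ones, were highest. It was 7.53-fold lower in proximal than in distal cells and 6.03-fold lower than in monocultured cells. Without proximal replicate 3, the log2 difference between the gates was -3.40, against -2.88 with it.

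NPTX1 (chromosome 17, 80466834 to 80477843, minus strand) was measured at 17.1, 17.5 and 26.04 CPM in proximal, 135, 129.7 and 139 CPM in distal and 103, 90.0 and 97.3 CPM in monocultured libraries. All distal libraries were above all monocultured ones, which were above all proximal ones. NPTX1 was 6.65-fold lower in proximal than in distal cells and 4.79-fold lower than in monocultured cells. PLPPR3 (chromosome 19, 812488 to 821955, minus strand) stood at 3.48, 2.13 and 3.36 CPM in proximal, 16.1, 14.2 and 16.5 CPM in distal and 18.0, 18.4 and 13.3 CPM in monocultured libraries. Its distal and monocultured libraries overlapped, unlike those of the other 8 genes. PLPPR3 was 5.22-fold lower in proximal than in distal cells and 5.55-fold lower than in monocultured cells. It lies on 2 sequences of the annotation, so its counts may be too low, in all groups alike.

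OSBPL5 (chromosome 11, 3087107 to 3166739, minus strand) was at 8.37, 7.70 and 8.46 CPM in proximal, 34.4, 30.2 and 36.3 CPM in distal and 25.7, 23.9 and 20.0 CPM in monocultured libraries. As with NPTX1 and HSH2D, distal libraries were highest. OSBPL5 was 4.12-fold lower in proximal than in distal cells and 2.84-fold lower than in monocultured cells, the smallest difference from monoculture among the 9. CA2 (chromosome 8) stood at 34.2, 33.4 and 39.3 CPM in proximal, 94.2, 113 and 103 CPM in distal and 222, 219 and 209 CPM in monocultured libraries. Its groups were far apart from each other, in the order monocultured, distal, proximal. CA2 was 2.89-fold lower in proximal than in distal cells, the smallest gate difference of the 9, and 6.08-fold lower than in monocultured cells.

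**Figure D1:**
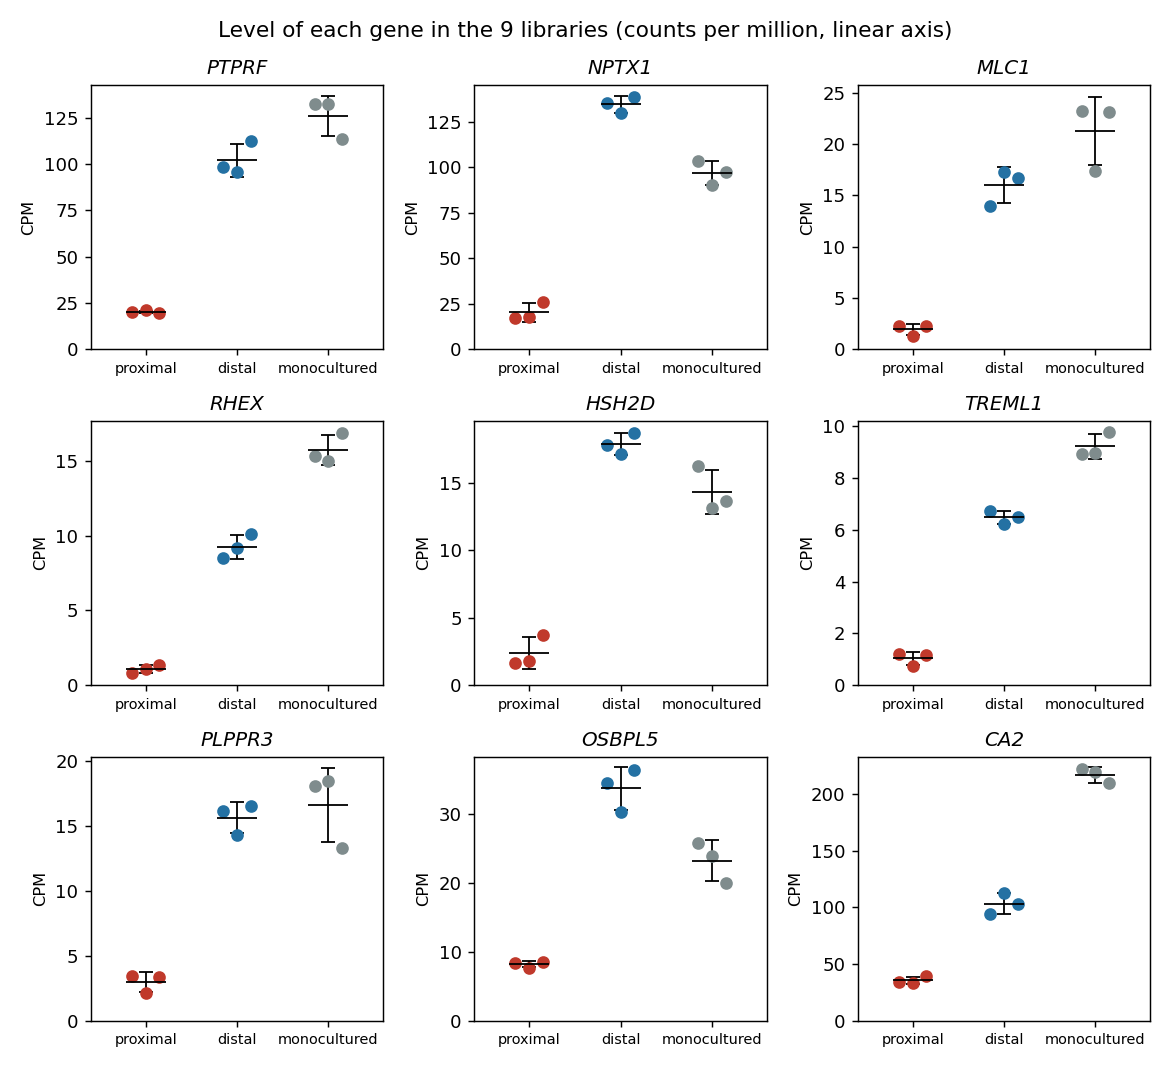
Level of each of the 9 genes in each library, in CPM on linear axes that start at 0, with points for libraries and black bars for each group's mean ± SD. Every proximal library lies below every distal and every monocultured library for all 9 genes, and the distal group is highest for NPTX1, HSH2D and OSBPL5.

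The contrast that chose the genes is summarised without a test. The log2 fold change of proximal against distal ran from -3.07 ± 0.20 (RHEX, ± SE) to -1.53 ± 0.10 (CA2), with a median of -2.64 over the 9 genes and 0.01 over all genes tested. Libraries of the gates did not overlap for any of the 9, where 15.3% of all genes tested were lower without overlap. Since the genes were chosen on it, nothing is read from this count. The 9 are not the only genes with such falls: 252 genes tested fell by at least as much as CA2, 60 of them with a distal mean of at least 5 CPM. In bulk libraries fewer cells of a type and less RNA per cell cannot be told apart.

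The comparison with monoculture asks whether the proximal level or the distal level departed from that of macrophages without tumour cells. It was not used to choose the genes, although it shares libraries with the contrast that was. All 9 genes were lower in proximal than in monocultured cells by edgeR's quasi-likelihood test, where 23.1% of all genes tested were called lower. The log2 fold changes were -3.83 ± 0.19 for RHEX (adjusted p = 1.20e-09), -3.45 ± 0.20 for MLC1 (6.61e-09), -3.15 ± 0.20 for TREML1 (1.57e-08), -2.64 ± 0.10 for PTPRF (1.15e-10) and -2.60 ± 0.10 for CA2 (8.86e-11). Those of the remaining genes were -2.56 ± 0.23 for HSH2D (6.66e-07), -2.46 ± 0.20 for PLPPR3 (1.49e-07), -2.25 ± 0.14 for NPTX1 (1.06e-08) and -1.50 ± 0.13 for OSBPL5 (5.30e-07). Proximal and monocultured libraries did not overlap for any of the 9, where 26.9% of all genes tested were lower without overlap and 26% higher. Because the genes were picked for low proximal values, low values against a further group that shares those proximal libraries are not independent support.

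Between distal cells and monoculture, 4 of the 9 genes were lower in distal cells, where 21.7% of all genes tested were called lower, and 2 were higher, near the background of 20.7%. The genes were picked for high distal against proximal counts, which favours high distal values here, so the higher calls are not independent support. The members that fell were CA2, by 1.07 on the log2 scale (SE 0.09, adjusted p = 5.17e-07 by edgeR), RHEX, by 0.76 (SE 0.14, 6.84e-04), TREML1, by 0.51 (SE 0.16, 0.0179), and PTPRF, by 0.31 (SE 0.09, 0.0184). OSBPL5 rose by 0.54 (SE 0.12, 0.00281) and NPTX1 by 0.47 (SE 0.13, 0.00865). MLC1 (-0.41 ± 0.16, adjusted p = 0.0525), HSH2D (0.32 ± 0.19, 0.195) and PLPPR3 (-0.08 ± 0.16, 0.714) did not pass the test. The libraries of MLC1 and HSH2D nevertheless did not overlap, which 27.2% of all genes tested showed in the lower and 26.9% in the higher direction. Leaving out distal replicate 2 reduced the 4 lower genes to 2. Both comparisons share the monocultured libraries, so their values stand side by side and are not set in relation to each other.

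**Figure D2:**
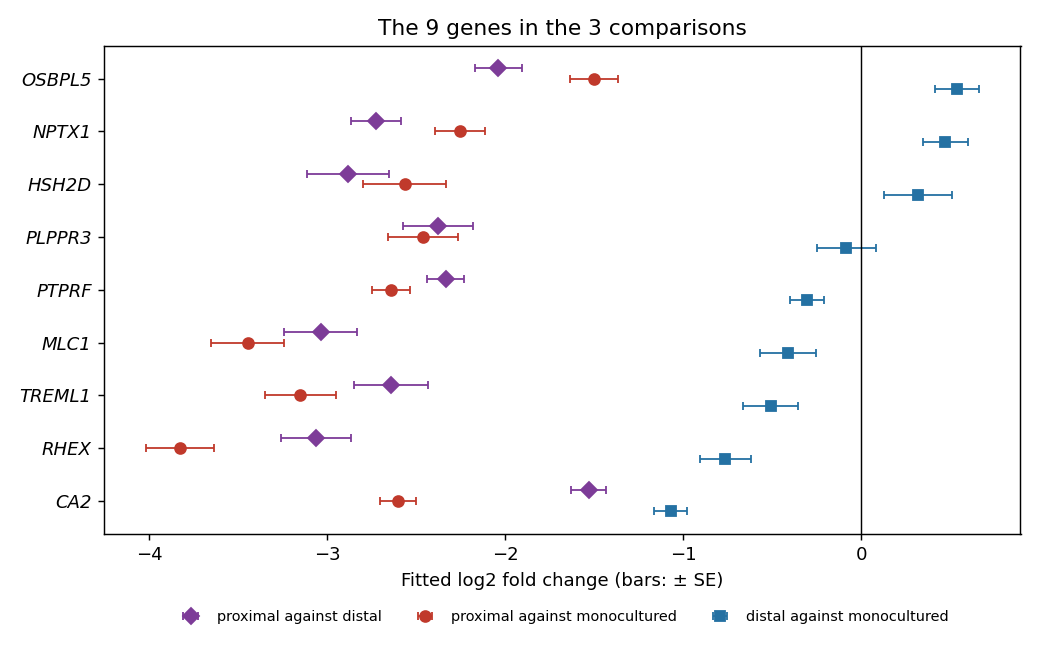
Log2 fold change of each of the 9 genes in the 3 comparisons, with bars of 1 SE; the proximal values are all at or below -1.50, while the distal against monocultured values run from -1.07 (CA2) to 0.54 (OSBPL5).

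The order of group means was monocultured, distal, proximal for 6 genes and distal, monocultured, proximal for NPTX1, HSH2D and OSBPL5. On the TPM scale, which also divides by gene length and so allows genes to be compared, CA2 had the highest level in each group, at 63.2 ± 5.31 TPM in proximal, 204 ± 16.7 TPM in distal and 396 ± 8.11 TPM in monocultured cells. NPTX1 (10.2 ± 2.48, 75.9 ± 2.48 and 50.7 ± 3.17 TPM) and PTPRF (6.71 ± 0.237, 37.7 ± 2.99 and 43.2 ± 3.30 TPM) came next in each group, and no libraries of these 3 genes overlapped within a group. Below them the proximal level ran from 3.90 ± 0.207 TPM (OSBPL5) down to 1.80 ± 0.500 TPM (MLC1), where each gene overlapped the next. In distal cells the same 6 genes lay between 16.6 ± 1.65 TPM (MLC1) and 21.3 ± 1.57 TPM (RHEX), again overlapping from one to the next. In monocultured cells RHEX, at 33.6 ± 2.45 TPM, stood clear of the gene below it, as did OSBPL5, at 11.4 ± 1.32 TPM, of the gene above it.

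The relative spread between replicates was larger in proximal cells. The coefficient of variation over the 9 genes had a median of 24.8% in proximal libraries (3.29% to 49.9%), 8.64% in distal and 8.52% in monocultured ones. The counts behind the proximal values were also the smallest. Proximal replicate 3 was the highest of its group for 6 of the 9 genes, and distal replicate 3 and monocultured replicate 1 of theirs for 6 each. Library totals ran from 13581994 to 16447199 read pairs.

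The 9 profiles followed each other closely over the 9 libraries. Pearson's r of log2 CPM ran from 0.767 (OSBPL5 and CA2) to 0.994 (MLC1 and TREML1) over the 36 pairs, with a median of 0.955. It describes shared group differences and libraries and was not tested. All 9 were picked for low proximal against distal counts, which by itself favours high r, so nothing is read from its size. Other genes were ranked by likeness to the mean profile of the 9, leaving out clone-type and LINC names and means below 1 CPM. This ranking favours genes with the same low proximal values that chose the 9. Those most alike were CDC20, which drives mitotic exit (r = 0.997), HOXA9, a homeobox factor of blood progenitors (0.993), GATA2 (0.991), the golgin gene GOLGA8N (0.991) and the growth factor gene BMP8B (0.990). GOLGA8N belongs to a family of near-identical copies that can share reads, so its value is uncertain. CDC20 had a mean of 24.4 ± 1.38 CPM in proximal libraries, against 75.5 ± 3.23 CPM in distal and 82.6 ± 6.54 CPM in monocultured ones. GATA2 stood at 9.58 ± 2.22 CPM in proximal and 53.6 ± 2.94 CPM in distal cells.

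**Figure D3:**
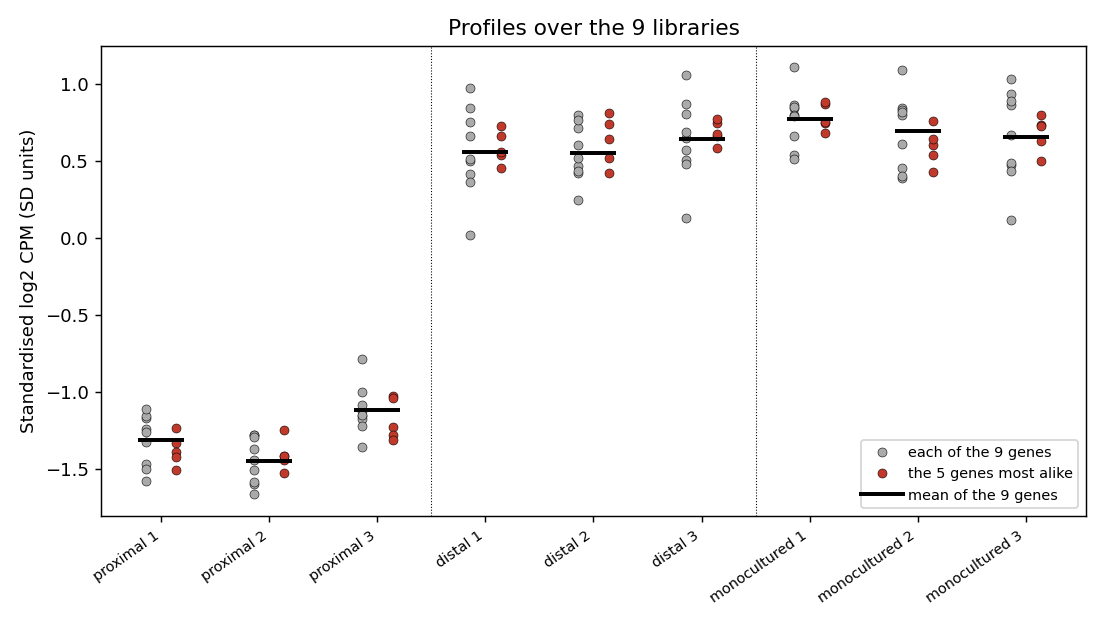
Standardised log2 CPM (SD units) of the 9 genes (grey), the 5 genes most like them (red) and the mean of the 9 (black bars) in each of the 9 libraries. Proximal libraries lie low for every gene. The distal and monocultured points overlap when the genes are pooled, but within a gene, of the 9, only those of PLPPR3 do.

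The 9 lists of relatives, without the 9 genes, held 143 names, of which 97 were tested. Between the gates 69 of these 97 did not pass, a smaller share than the 83.7% of all genes tested. Of the tested relatives, 10 were lower in proximal than in distal cells (10.3%, against 7.93% of all genes tested) and 18 were higher (18.6%, against 8.4%), with a median log2 difference of 0.09. With upper-quartile scaling the shares over all genes became 10.2% lower and 5.29% higher, and those relatives called were 11 and 14. The count of 10 fell to 5 without proximal replicate 1, to 5 without distal replicate 1 and to 3 without distal replicate 3, where the lower share of all genes fell to 5.33%, 5.15% and 4.86%.

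Of the TREM locus receptors, 1 of 4 tested was lower and 2 were higher. TREM2, a lipid receptor of macrophages whose gene lies beside TREML1, was at 12.4 ± 0.348 CPM in proximal and 38.8 ± 2.69 CPM in distal cells, a log2 difference of -1.64 ± 0.11 (edgeR adjusted p = 7.28e-07). TREM1, which amplifies inflammatory signals, rose, from 2.41 ± 0.556 to 5.17 ± 0.170 CPM (1.10 ± 0.22, 0.00394). Their adaptor TYROBP passed as higher (0.37 ± 0.12, 0.0431), but not under 10 of the 17 alternatives, among them upper-quartile scaling.

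Among partners of MLC1, 4 of 6 tested were higher and the other two did not pass. Caveolin 1 (CAV1) rose from 10.4 ± 1.30 to 20.9 ± 3.03 CPM (1.01 ± 0.15, edgeR adjusted p = 5.48e-04), and DTNA, a protein of the dystrophin complex, rose too (0.70 ± 0.10). In the LAR group 4 of 15 were higher, led by TRIO, a LAR-binding exchange factor (0.65 ± 0.08, adjusted p = 7.24e-05), and 1, SLITRK5, was lower. In erythropoietin receptor signalling 3 of 16 were higher, among them SH2B3, an inhibitor of JAK2 (0.54 ± 0.07, 1.49e-04), and 1, CISH, was lower.

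For the SH2 adaptors, 1 of 13 was higher (SLA, 0.47 ± 0.11) and 2 were lower, LAT2 (-0.27 ± 0.08, edgeR adjusted p = 0.0420) and TNK2 (-0.50 ± 0.16, 0.0441), whose libraries overlapped. Their calls were lost under 8 and 7 of the 17 alternatives, the fit of only the 2 groups among them. The lipid phosphate phosphatase group had 1 of 13 higher (the lysophosphatidic acid receptor LPAR1, 0.44 ± 0.12, lost under 5 alternatives) and 1 lower (LPAR2, -0.70 ± 0.11). Of the oxysterol-binding family and its contact-site partners, 1 of 18 was higher (OSBP2, 1.12 ± 0.24) and 2 were lower (OSBPL7, -0.62 ± 0.15, lost under 2, and OSBPL1A, -0.55 ± 0.16, lost under 6). Among 9 carbonic anhydrases and carriers tested, the bicarbonate carrier SLC4A7 was higher (0.79 ± 0.11) and the acatalytic CA11 was lower (-1.08 ± 0.26). Of 3 pentraxins and synaptic partners tested, NPTX2, a close relative of NPTX1, was lower (1.97 ± 0.666 against 3.99 ± 0.915 CPM, edgeR adjusted p = 0.0237), a call lost under 4 of 16 alternatives.

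**Figure D4:**
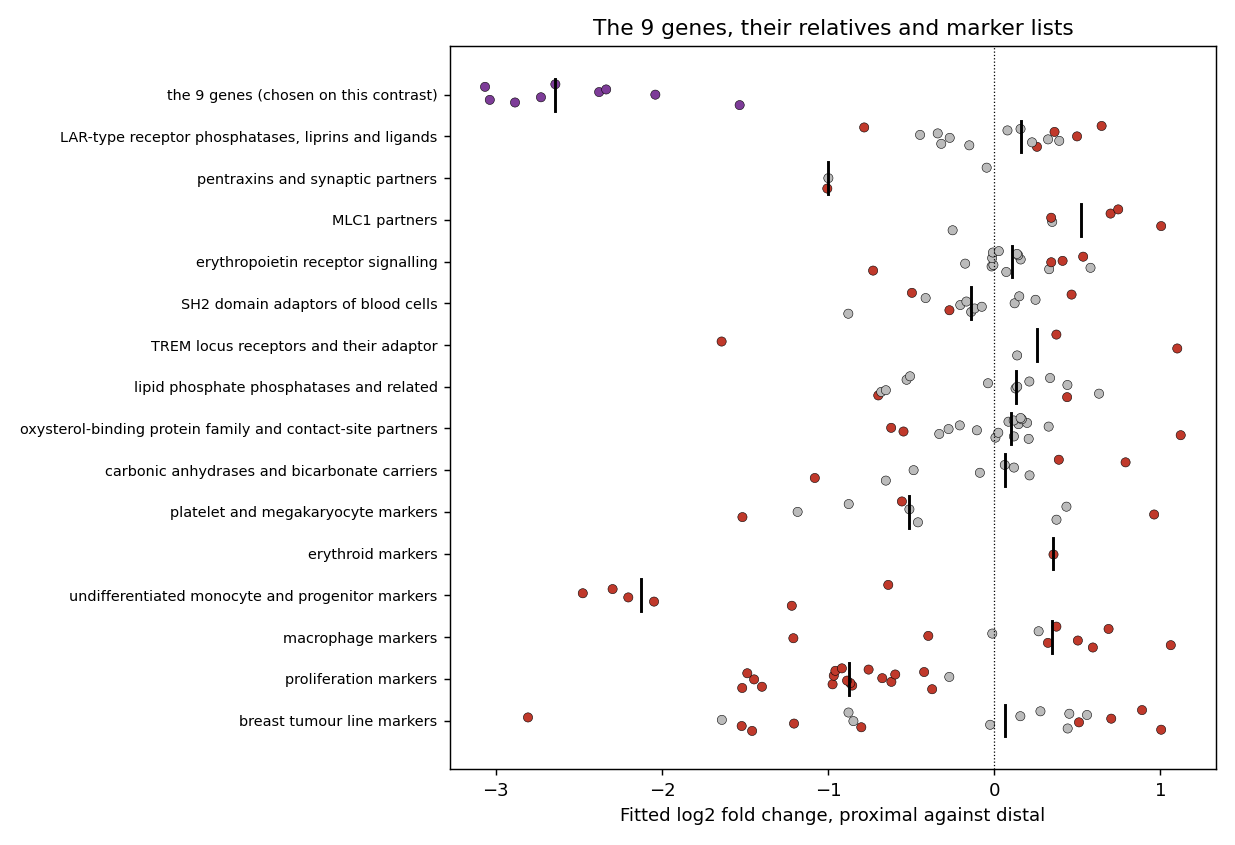
Log2 difference of proximal against distal for each tested gene of the 9 genes, the lists of relatives and the marker lists, with red points for genes called by edgeR, grey for those not called, purple for the 9 genes (not tested) and black bars for medians. The 9 genes, chosen on this contrast, sit between -3.07 and -1.53. Most relatives lie near 0, and nothing is read from the gap, which that choice favours.

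Progenitor and proliferation markers were lower between the gates, as the 9 genes were, while the other marker lists were mixed or higher. All 6 tested markers of undifferentiated monocytes and progenitors (12 listed) were lower in proximal than in distal cells, where 7.93% of all genes tested were. With no filter on low counts 5 of 11 were lower, and in the fit of only the 2 groups 5 of 5. The 6 had a median log2 difference of -2.13, among them MYB (16.6 ± 1.49 against 81.5 ± 10.1 CPM) and GATA2. The summed level of the 12 listed markers was 154 to 192 CPM in proximal, 366 to 398 CPM in distal and 602 to 660 CPM in monocultured libraries. Proliferation markers were lower for 17 of 18, against the same 7.93% of all genes tested, with a median of -0.88. Their sums were 260 to 306, 495 to 524 and 469 to 486 CPM in the same order of groups. Of the macrophage markers, 6 of 10 tested were higher and 2 lower between the gates, against 8.4% and 7.93% of all genes tested. CD14, one of those higher, stood at 180 ± 6.42 against 119 ± 7.75 CPM. Against monoculture, however, 8 of the 10 were lower and 2 higher in proximal cells, where 23.1% and 22.4% of all genes tested were. In distal cells 8 were lower and 1 higher, against 21.7% and 20.7%. The part of these marker groups in the low values of the 9 genes was not tested.

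TREML1 is best known in platelets and megakaryocytes. Of their markers, 1 of 9 tested was higher (ITGB3, 11.1%) and 2 were lower (VWF and ITGA2B, 22.2%) between the gates. Over all genes tested the shares were 8.4% and 7.93%. The count of lower platelet markers fell to 0 without proximal replicate 1 and without distal replicate 1. GP1BB and GP6 were at 0 in all 9 libraries. Of 15 erythroid markers only the transferrin receptor TFRC passed the filter, and HBD, HBG1, HBG2, GYPB and AHSP were at 0 in all libraries. Tumour line markers had 4 of 18 tested higher (22.2%) and 5 lower (27.8%) between the gates, against 8.4% and 7.93% of all genes tested. Their sums were 229 to 241 CPM in proximal, 198 to 226 in distal and 190 to 196 in monocultured libraries, with KRT18, EPCAM and KISS1 at 0 in all 9. Against monoculture, 9 of the 18 were higher and 4 lower in proximal cells, where 22.4% and 23.1% of all genes tested were. In distal cells 10 were higher and 2 lower, against 20.7% and 21.7%. EGFR, LAMB3 and TFPI2 were among those higher in both gates, and FN1 among those lower in both. ERBB2, the targeted receptor, stood at 17.3 ± 2.03 CPM in proximal and 39.8 ± 7.76 CPM in distal cells, and at 1.52 ± 0.348 CPM without tumour cells. The counts of 0 above leave out pairs that map to several places or overlap several genes, so they need not mean absent RNA. The part of tumour RNA in the values of the 9 genes was not tested.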

How the data were processed

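The authors deposited raw counts of read pairs per gene name in 3 tables of 3 libraries. Per the file headers, featureCounts 1.6.3 counted pairs over exons of GENCODE release 36 without using strand. Pairs that map to several places or overlap several genes were left out, so overlapped genes can be undercounted: 94.6% of the exonic bases of RHEX, 93.9% of HSH2D and 97.4% of PLPPR3 are free of other genes, and 100% of the others. Per the submitters' processing notes, the tools also included Trim Galore 0.6.5, STAR 2.7.6a and DESeq2 1.34.0 in R 4.1.3, with build GRCh38.p13.

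These counts went into edgeR 4.0.16 under R 4.3.3. Low genes were removed by filterByExpr with a minimum count of 10 and a minimum total of 15, TMM gave the scaling, and the quasi-likelihood model was fitted robustly to the 9 libraries together, with a mean for each group and 6 residual degrees of freedom. The biological coefficient of variation was 11.6%. Calls needed an adjusted p (Benjamini-Hochberg, 15427 genes) below 0.05. The fitting code was checked on simulated data. CPM use effective library sizes, and TPM use the gene lengths in the tables. Likeness was Pearson's r of log2 CPM (prior count 2) with the mean standardised profile. It was ranked over genes with a mean of at least 1 CPM, without clone-type and LINC names, so many non-coding genes were not ranked. Figures were drawn in matplotlib 3.10.9 (Python 3.11.15), from tables made with numpy 2.4.6 and pandas 2.3.3.

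Named genes were the 9 genes, up to 3 called relatives per list and up to 2 called markers per list by smallest p, ERBB2 and the 5 most alike genes. SLITRK5, CISH, ITGA2B, EGFR, LAMB3, TFPI2, FN1 and genes at 0 were named after their values were seen. Some genes that this rule names are not reported here. Members and lists were chosen with earlier results of these data known. Alternatives were DESeq2 1.42.0 (size factors, Wald test), upper-quartile factors, 2 other filters, fits of 2 groups, a replicate block, and leaving out libraries.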

Additional observations from a re-analysis of the deposited data

Results flagged for a closer look

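For NPTX1, HSH2D and OSBPL5, every distal library was above and every proximal library below every monocultured one, as for 0.81% of all genes tested. The median distal level was 135 CPM for NPTX1, 17.8 CPM for HSH2D and 34.4 CPM for OSBPL5. The 9 genes were picked for high distal against low proximal counts, which favours this pattern, so it is a description and was not tested. The distal change of HSH2D against monoculture did not pass edgeR's test (adjusted p = 0.195).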

How the results depend on the processing

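All 9 genes were lower in proximal than in monocultured cells under each of the 17 alternatives. In distal against monocultured cells, 4 were lower; leaving out 1 library gave 2 to 5, and 2 without distal replicate 2. Of 153 single-gene values in that comparison 8 lost and 10 gained the threshold: PTPRF failed it in 5 alternatives and TREML1 in 3, and MLC1 failed in 10 and HSH2D in 14. None changed sign. The 10 lower relatives ranged from 3 to 10 and the 18 higher from 13 to 21 when 1 library was left out; without proximal replicate 3 and distal replicate 2 together they were 14 and 26, where 14.3% of all genes were called lower and 17.3% higher. The cause was not tested. Same-numbered libraries correlated over 0.1 in 4 of 9 pairs (-0.16 to 0.30), and 4 of 9 libraries correlated best with their own number. With 3 libraries per group, these values cannot decide whether equal numbers pair the samples. With the replicate block, 9 genes were lower in proximal than monocultured cells, 4 lower and 2 higher in distal ones, and 11 relatives lower and 18 higher. Proximal values of TREML1 and RHEX rest on 10 to 21 read pairs.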

Other observations

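The nearest tested gene on each side of 8 of the 9 genes (CA2 left out; chosen after seeing the data) gave 16 neighbours, of which 13 did not pass, 2 were lower and 1 was higher in proximal than in distal cells by edgeR's test, with a median log2 difference of -0.08. Over all genes tested, 83.7% did not pass, 7.93% were lower and 8.4% higher, so the neighbours lie near the background. The lower ones were TREM2, 4169 bases from TREML1, and the mTOR complex gene RPTOR beside NPTX1 (-0.44 ± 0.09, adjusted p = 0.00607), and the higher one was the tropomyosin TPM4 beside HSH2D (0.28 ± 0.07, 0.0126). PTBP1, which ends 161 bases from PLPPR3, stood at 323 CPM in proximal, 353 CPM in distal and 337 CPM in monocultured cells and did not pass the test (-0.13 ± 0.09, adjusted p = 0.346). Without strand, reads running past its end could be counted for PLPPR3, which was not tested.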
